A study of Mus musculus with 2 samples.

Results

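The Ikaros family was examined in the Myc-Tag ChIP-seq of a Lck-Dlx5 T-cell lymphoma. Its 5 genes, Ikzf1, Ikzf2, Ikzf3, Ikzf4 and Ikzf5, are 5 of 21887 protein-coding genes in the RefSeq table of GRCm38, the mouse assembly known as mm10. An interval, which is a stretch of the genome where the peak caller found enriched reads, was counted at a gene when at least 1 bp of it fell in the gene body or in the 10 kb flanking each end. This gave 3 intervals at the family, 2 at Ikzf1 and 1 at Ikzf3, and no interval was called at Ikzf2, Ikzf4 or Ikzf5. Of all protein-coding genes, 19.0% had an interval by this rule.

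ChIP-seq sequences the DNA fragments that an antibody pulls down together with a chromatin protein. In Lck-Dlx5 mice the Lck promoter, which is active in developing T cells, drives a Dlx5 homeobox protein that carries the Myc-Tag peptide seen by the antibody. The labels give the material as a primary T-cell lymphoma, of strain C57BL/6 for the ChIP and C57BL/7 for the input, whereas the methods name a lymphoma cell line and an IgG control. There was 1 Myc-Tag library and 1 input library, neither has a replicate, the age of the mouse is not in the sources used here, and peak calls hold no expression values against which the cell type could be checked. In the Myc-Tag library 3477 intervals were called, and in the input 28, each of which matched a Myc-Tag interval. The value deposited for each interval is the height of its summit, a score with no stated normalization. Heights ran from 9 to 301 with a median of 16, and no read totals were used, so the depth behind a height is unknown.

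Ikaros family proteins are zinc finger transcription factors of the lymphoid lineages. One set of fingers, toward the amino terminus, binds DNA, and another, at the carboxyl terminus, pairs family members with each other. Ikzf1 (Ikaros) is needed for lymphocyte development and is a known tumor suppressor in T-cell leukemia. Ikzf3 (Aiolos) acts mainly in maturing B cells, Ikzf2 (Helios) and Ikzf4 (Eos) are known from regulatory T cells, and Ikzf5 (Pegasus) is the most divergent member. The proteins recruit the NuRD, Sin3 and CtBP corepressors to chromatin.

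The promoter sequences are shown because the interval at Ikzf1 covers a transcription start, and the other listed starts of the family have none. The RefSeq promoter table of GRCm38.p6 gave 2 starts for Ikzf1 and 1 for Ikzf5. It held Ikzf1 and Ikzf5 among the 5 genes. Each line gives the 250 bases before a start, 5′ to 3′ on the strand of the gene. In the first line, capitals mark the 136 bases that lie under the Myc-Tag interval. In the others, capitals mark the letters TAATT, the core motif known for Dlx proteins.
Ikzf1 first start, chr11:11685675-11685924, plus strand: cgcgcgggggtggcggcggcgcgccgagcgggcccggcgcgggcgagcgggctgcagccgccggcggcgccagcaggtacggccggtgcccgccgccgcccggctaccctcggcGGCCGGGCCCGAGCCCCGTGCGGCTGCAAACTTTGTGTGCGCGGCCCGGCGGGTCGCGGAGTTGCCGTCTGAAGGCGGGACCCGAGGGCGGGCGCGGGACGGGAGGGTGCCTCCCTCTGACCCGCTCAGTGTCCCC
Ikzf1 second start, chr11:11689927-11690176, plus strand: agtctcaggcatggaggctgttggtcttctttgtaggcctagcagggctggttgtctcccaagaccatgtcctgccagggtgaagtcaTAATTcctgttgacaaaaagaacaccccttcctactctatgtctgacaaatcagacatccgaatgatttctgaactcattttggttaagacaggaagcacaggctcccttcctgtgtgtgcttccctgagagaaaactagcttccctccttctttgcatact
Ikzf5 start, chr7:131410479-131410728, minus strand: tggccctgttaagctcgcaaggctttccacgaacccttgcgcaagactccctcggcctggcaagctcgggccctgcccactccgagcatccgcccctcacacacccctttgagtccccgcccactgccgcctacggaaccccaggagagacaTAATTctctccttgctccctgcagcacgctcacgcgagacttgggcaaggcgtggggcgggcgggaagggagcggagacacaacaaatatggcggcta

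The first Ikzf1 promoter, which the interval overlapped, held neither TAATT nor AATTA, its reverse complement, in the 300 bases from 250 before to 50 after the start. This window ended at 11685974, short of the interval's summit at 11686048. The rest of this interval and the other Ikzf1 interval, described below, were not searched, so whether they hold TAATT is not known. The second Ikzf1 start and the Ikzf5 start, where no interval was called, each held TAATT, with its first base 162 and 98 bases before the start. Over all 21263 promoter windows of protein-coding genes in the table, 23.5% held TAATT on either strand. The share was 14.0% (95% Wilson interval 12.6 to 15.5%) in the 2117 windows that an interval overlapped (9.96% of all windows), and 24.5% (23.9 to 25.1%) in the 19146 others. These Wilson intervals cover counting error only. By motif discovery, the paper found TAATT, the known Dlx motif, in most of the Dlx5 binding consensus. The windows counted here are not the sequences under the intervals, since an overlap of 1 bp was enough. Their shares therefore cannot be set against that result. The letters TGGGAA, the core known for Ikaros proteins, or their reverse complement TTCCCA were in 24.5% of all windows and in none of the 3 family windows.

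The first Ikzf1 promoter was also among the most GC-rich of the table. Its GC content was 81.3%, with 52 CG dinucleotides, and 99.3% of the protein-coding windows were at or below that GC content. The second Ikzf1 window had a GC content of 49.0% with 2 CG dinucleotides, and the Ikzf5 window had 65.7% with 27. The median over windows overlapped by an interval was 63.3% GC with 25 CG dinucleotides, against 55.7% and 11 in those not overlapped. TAATT is itself AT-rich, and the part of base composition in the shares of TAATT was not tested.

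Ikzf1 had 2 intervals as called, and 1, as Ikzf3 had, when intervals closer than 10 kb were merged or when summits below the median height of 16 were left out. The gene (gene ID 22778) spans 11684962 to 11772930 of chromosome 11. The interval at its promoter ran from 11685789 to 11686606 and was 818 bp wide. Its summit, at 11686048 with a height of 14, lay inside the gene, 123 bp downstream of the first listed start and 1086 bp above the lower end of the gene, meaning the end at the smaller coordinate. The other Ikzf1 interval ran from 11678617 to 11679493, with a width of 877 bp. Its summit at 11678944 had a height of 25 and lay outside the gene, 6018 bp below its lower end. The upstream summit was thus the taller of the Ikzf1 pair by 11. No interval was called in the 86324 bp of the gene above the promoter interval. Of the coding neighbors of Ikzf1, 4930512M02Rik had no interval, and Fignl1, an ATPase gene of DNA repair, had a summit of height 14 located 34 bp downstream of its start.

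Compared with other promoter intervals, the summit at the Ikzf1 start was below the median height. Of 1663 intervals over a promoter window of a protein-coding gene, 61.8% were taller than 14 and 11.7% had the same height, and their median was 16. The Ikzf1 upstream summit was higher than most of those over no listed window, since 166 of these 1814 intervals (9.15%) exceeded 25, and their median was 15. Windows were listed for 17492 of the 21887 protein-coding genes, so some of the 1814 may lie at promoters that were not listed. Genes with an interval over a listed promoter window and another over none numbered 230. The interval over no listed window was the taller in 97 of these (42.2%), and it was taller by at least the 11 seen at Ikzf1 in 15 (6.52%). The heights come from 1 library, so none of these differences has a replicate check.

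The position of the promoter summit was likewise close to that of other genes. Of the Myc-Tag summits, 1901 lay within 2 kb of a listed start of a protein-coding gene, at a median of 42 bp downstream (interquartile range 106 bp upstream to 205 bp downstream). At 123 bp downstream, the Ikzf1 summit was inside this range. Most summit positions (3329 of 3477) are multiples of 16 bp, so they are not exact to the base.

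**Figure D1:**
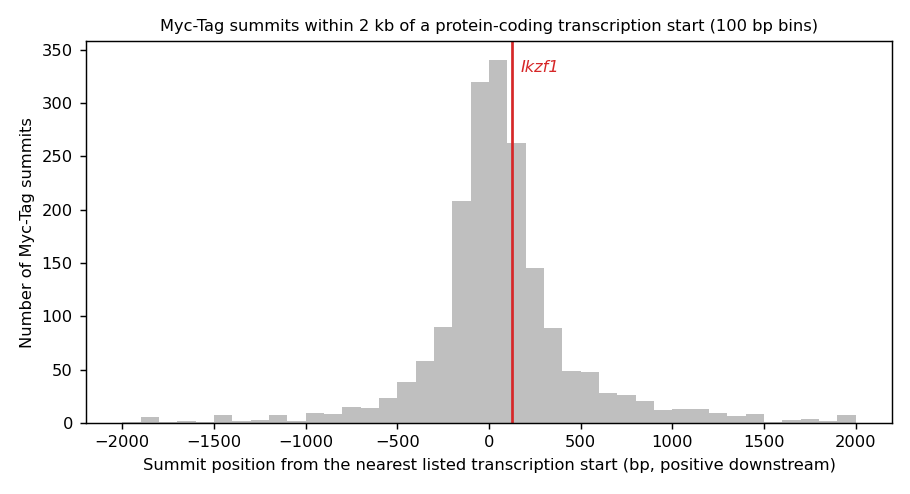
Histogram of the position of Myc-Tag summits relative to the nearest listed transcription start of a protein-coding gene, in bp, for the 1901 summits within 2 kb, with the number of summits per 100 bp bin on the vertical axis. The red line marks the Ikzf1 promoter summit, 123 bp downstream, near the centre of the distribution.

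The Ikzf1 intervals lay next to a long noncoding RNA gene. Gm11999 spans 11642203 to 11685635 of chromosome 11 on the opposite strand, and its listed start is 290 bp below the first start of Ikzf1, so that the promoters of the pair face away from each other. The interval at the Ikzf1 start overlapped the promoter window of Gm11999 as well, with its summit 413 bp upstream of the Gm11999 start, but not the body of Gm11999. The upstream interval of height 25 lay inside Gm11999, 6.69 kb downstream of its start. A further interval inside Gm11999, from 11667869 to 11668466 with a height of 14, was 16834 bp below Ikzf1 and so was not counted at it. The 3 summits spanned 17920 bp. Which of the 2 genes an interval here belongs to cannot be told apart from peak positions.

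The interval counted at Ikzf3 lay at another gene. Ikzf3 (gene ID 22780) spans 98464610 to 98546031 of chromosome 11, and the interval ran from 98457781 to 98458309, below its lower end. The summit at 98457920 had a height of 25 and was 6690 bp from Ikzf3. It overlapped Mien1, a gene that codes for a small membrane-anchored protein, and lay 310 bp inside the higher end of that gene. Mien1 is on the minus strand, so its higher end is its upstream end, although its listed start was 18932 bp from the summit. No interval was called in the body of Ikzf3. On the other side of Ikzf3, at Zpbp2, 5065 bp away, none was called either.

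The Ikzf3 interval and the upstream Ikzf1 interval had equal heights, and 285 of the 3477 Myc-Tag summits (8.20%) were taller. They differed in width. The Ikzf3 interval was 529 bp wide and 86.3% of intervals were wider, whereas 33.6% were wider than the upstream Ikzf1 interval. The promoter interval of Ikzf1 was exceeded in height by 2084 summits (59.9%) and in width by 40.8% of intervals.

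**Figure D2:**
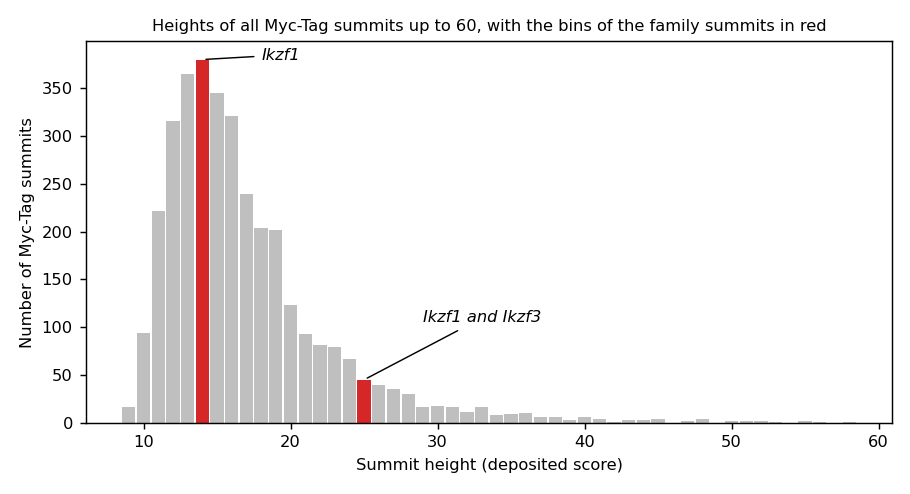
Number of Myc-Tag summits at each summit height, the deposited score, for heights up to 60. The red bars are the heights at which a family summit lies, 14 for the Ikzf1 promoter interval, near the peak of the distribution, and 25 for the upstream Ikzf1 interval and the Ikzf3 interval, on its upper flank.

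The 3 family intervals had no counterpart in the input. Of the 3192 Myc-Tag intervals with heights up to 25, only 1 was called in the input, so the lack of an input call is shared by nearly all intervals of these heights. The study's array-CGH, an assay of DNA gains and losses, marks Ikzf1 as one of the loci with distinctive patterns in Lck-Dlx5 lymphoma lines. The copy number of Ikzf1 in the sequenced cells was not analysed here, and its part in the summit heights was not tested.

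At Ikzf2, Ikzf4 and Ikzf5, binding by the same rule was not detectable at the threshold used for calling. The tables used here give no strand for Ikzf2, Ikzf3 and Ikzf4, so the ends of these genes are named by coordinate. Ikzf2 (gene ID 22779), the longest member at 156 kb, spans 69531207 to 69687351 of chromosome 1. The nearest summit, with a height of 12 at Lancl1, was 2492 kb below it. The stretch without a summit around Ikzf2 was 5.19 Mb long. Of the 3456 gaps between neighboring Myc-Tag summits, whose median was 192 kb, 82 (2.37%) were longer. A gene is more likely to lie in a long gap than in a short one, and this ranking counts all gaps equally. The share of longer gaps therefore does not measure how unusual the stretch is for a gene. The stretch held 10 whole protein-coding genes, Ikzf2 included. The neighbors of Ikzf2, Erbb4, a receptor tyrosine kinase gene, and Spag16, a gene for a sperm axoneme protein, had no interval.

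The intervals nearest to Ikzf4 and Ikzf5 lay at the promoters of other genes. The stretch without a summit was 149 kb around Ikzf4 and 1448 kb around Ikzf5. Of the gaps, 55.4% and 13.3% were longer, with the same limit as for Ikzf2. Ikzf4 (gene ID 22781) spans 128630839 to 128669671 of chromosome 10. The nearest summit to it, of height 17 at 128696480, was 26809 bp above its higher end and 212 bp upstream of the start of Rab5b, which codes for an endosomal GTPase, and its interval also overlapped Pmel. The adjoining genes Rps26, for a ribosomal protein, and Suox, for sulfite oxidase, had no interval, although only 215 bp lie between Suox and Ikzf4.

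Ikzf5 (gene ID 67143), the shortest member at 21.9 kb, spans 131388649 to 131410518 of chromosome 7. Its listed start and that of Acadsb, an acyl-CoA dehydrogenase gene on the plus strand, were 123 bp apart on opposite strands, and no interval was called at either. The nearest summit to Ikzf5, of height 16, was 25929 bp below its lower end, and lay 6 bp downstream of the start of 2310057M21Rik. The same interval was counted at Pstk, a kinase gene of selenocysteine synthesis, which overlaps Ikzf5.

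**Figure D3:**
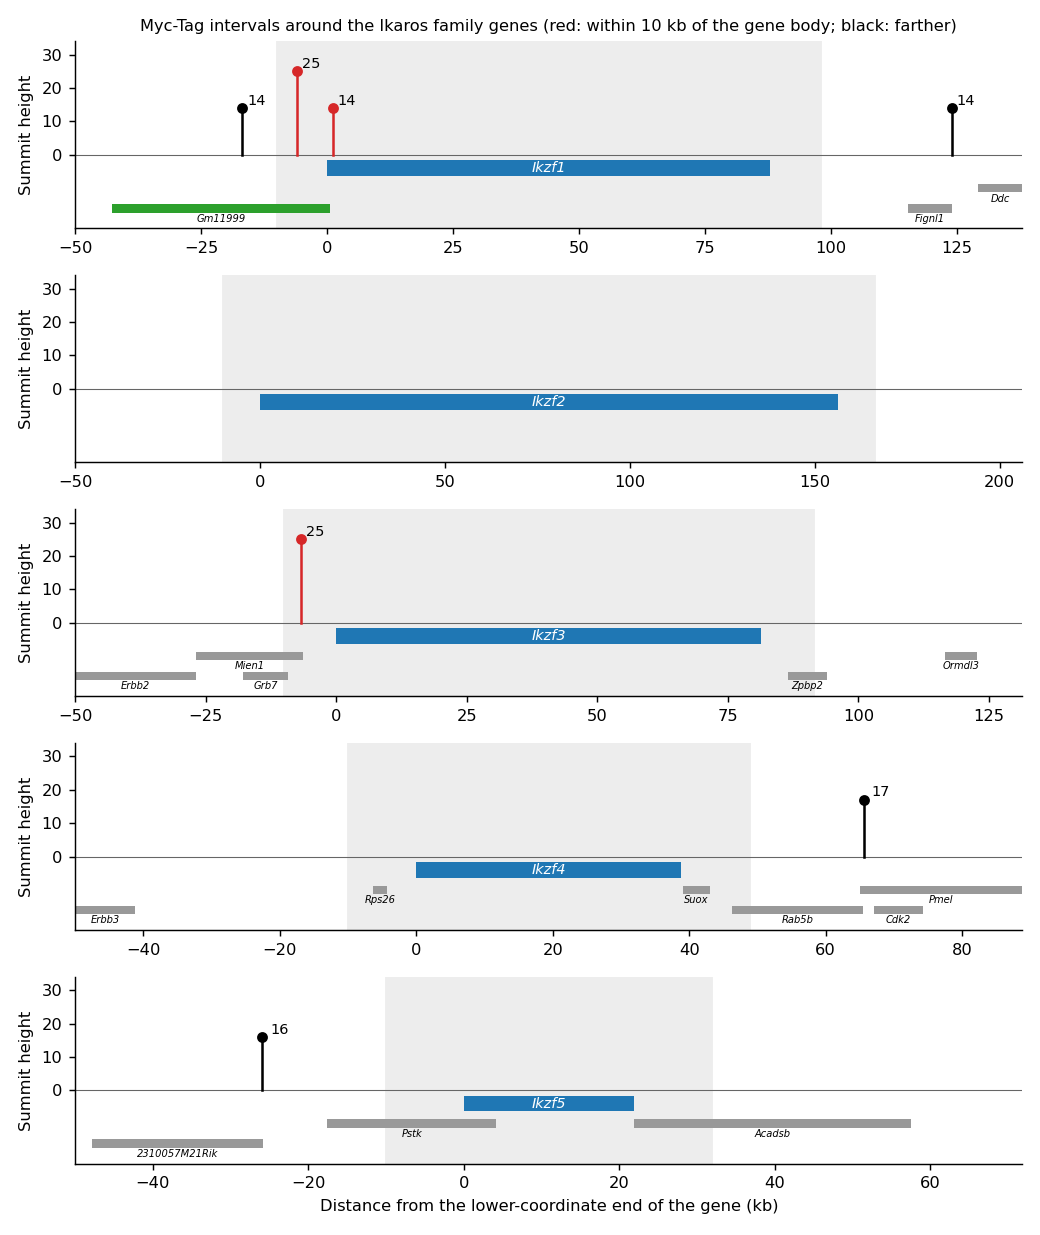
Each panel shows 1 family gene (blue) with the protein-coding genes near it (gray) and the noncoding gene Gm11999 (green), against the distance in kb from its lower end, and stems give the summit height of each Myc-Tag interval within 50 kb. The shaded area is the gene body with 10 kb on either side, where Ikzf1 has summits of 25 and 14, Ikzf3 has 1 of 25, and the other 3 genes have none.

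The family count stands beside a background of 4168 of the 21887 protein-coding genes, or 19.0%, that had an interval by the same rule. In the family it was 2 of 5 (40.0%, 95% Wilson interval 11.8 to 76.9%), and this interval includes the background. For 2 or more intervals the background was 687 genes (3.14%), and in the family Ikzf1 had them. Long genes have wider windows, so the background was also taken by length. Among genes of 50 to 100 kb, the class of Ikzf1 and Ikzf3, 23.4% had an interval. The share was 21.9% among genes of 20 to 50 kb, the class of Ikzf4 and Ikzf5, and also 21.9% among those of 100 to 200 kb, the class of Ikzf2. Counting each interval only at the protein-coding gene whose end was nearest left Ikzf1 alone, with 2 intervals, against a background of 12.8%.

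**Figure D4:**
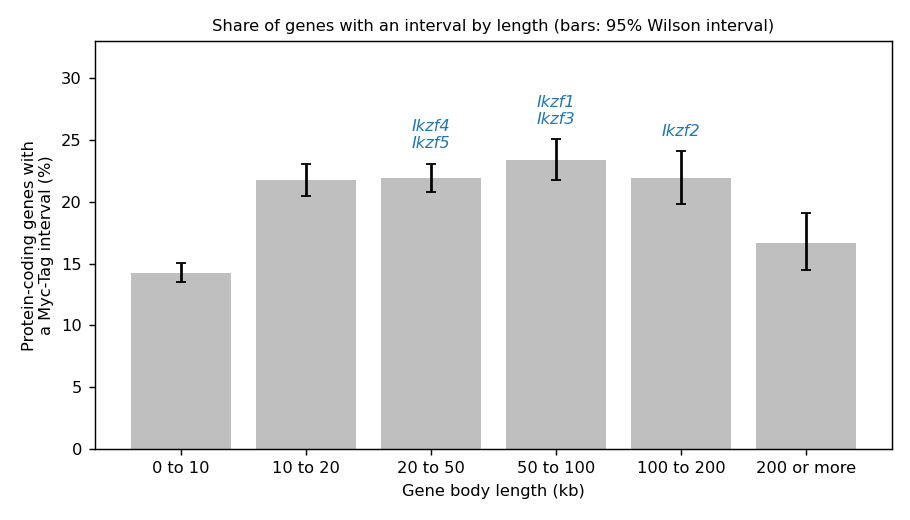
Share of protein-coding genes with a Myc-Tag interval in the gene body or within 10 kb, in percent, by gene body length in kb, with 95% Wilson intervals as error bars. The names mark the length class of each family gene, and the shares of these 3 classes lie between 21.9% and 23.4%.

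The number of intervals in the surroundings of the members ranged from 0 to 13. Within 1 Mb of Ikzf1 there were 5 intervals, with heights from 14 to 25, and 4 of the 8 other protein-coding genes had one. Near Ikzf3 there were 13 intervals and 19 of 68 genes (27.9%) had one. The region of Ikzf4 held 10 intervals and 21 of its 95 genes (22.1%) had one. The region of Ikzf5 held 2 intervals, counted at 4 of 22 genes (18.2%). Within 1 Mb of Ikzf2 there was no interval, and 0 of 2 other genes had one.

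The protein-coding genes most like Ikzf1 were taken as those with the same number of intervals and the same tallest height in this library. Apart from Ikzf1, 11 genes had 2 intervals and a tallest summit of 25. Among the 5 nearest to it in length were Prdm10, Fam3c, Dnajb14 and Glp1r, whose lower summits had heights from 13 to 16, against 14 at Ikzf1. None of their intervals was called in the input.

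Genes for the partners of Ikaros proteins were examined by the same rule, and all 24 were matched in the gene table. Of these 24 genes, 10 had an interval (41.7%, 95% Wilson interval 24.5 to 61.2%), against the background of 19.0%, and the median of their tallest heights was 14.5 against 16 over all protein-coding genes with an interval. This list was chosen with earlier results of these data known, and the background was not matched to it in length. The Wilson interval covers counting error only and is no test against the background. The count fell to 5 (20.8%, against 13.4% of all protein-coding genes) with the gene body only, to 4 (16.7% against 10.7%) with summits of at least 16, and to 2 (8.33% against 6.05%) with summits of at least 19. Among the 14 NuRD subunit genes, 6 had one. The histone deacetylase gene Hdac2 had summits of 18 and 14, the taller 153 bp outside the gene. The methyl-CpG binding protein gene Mbd2 had 4 intervals with heights from 11 to 15. Gatad2b had a summit of 13, 563 bp inside the gene, and the helicase gene Chd3 had a summit of 14. The tallest summit of the list, 27 at Gatad2a, lay 488 bp from an end of Tssk6, another gene.

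Among the other partner genes, Sin3a, a corepressor scaffold, had 2 summits of height 12, while Sin3b, Ctbp1, Ctbp2 and the chromatin remodeling ATPase gene Smarca4 had none. Cereblon is the subunit of a ubiquitin ligase through which thalidomide analogs lead to the degradation of Ikaros and Aiolos. Of the 5 ligase genes, Cul4a had a summit of 23, Crbn had 1 of 16 and Rbx1 had 1 of 14. The Crbn summit lay 9124 bp from Crbn and 18 bp from an end of Trnt1, and the Cul4a summit was nearer to Pcid2 than to Cul4a. Counted only at the nearest gene end, 6 of the 24 partner genes had an interval, against 12.8% of all protein-coding genes.

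Of 19 lymphoid genes at which Ikaros proteins are known to act, or which mark lymphocyte development, 10 had an interval (52.6%, 95% Wilson interval 31.7 to 72.7%), against the background of 19.0%, with a median tallest height of 17.5 against 16 over all protein-coding genes with an interval. As for the partner list, the choice of genes, the unmatched background and the Wilson interval allow no test of a difference. The count fell to 4 (21.1%, against 13.4% of all protein-coding genes) with the gene body only, to 7 (36.8% against 10.7%) with summits of at least 16, and to 3 (15.8% against 6.05%) with summits of at least 19. The tallest were 22 at the transcription factor gene Foxo1 and 22 at Igll1 and Vpreb1, the surrogate light chain genes of pre-B cells, which shared 1 interval that lay 30 bp from an end of Top3b. That interval enters the count of 10 and the counts by height once for each of these genes. The Wilson interval treats the genes as independent and does not allow for this. Ptcra, the pre-T-cell receptor alpha gene, and Cd79a, of the B-cell receptor, each had a tallest summit of 18 that was nearer to another gene. Lck, a kinase gene whose promoter drives the transgene, had a summit of 17 inside the gene, 220 bp upstream of a listed start. The interleukin receptor gene Il2ra had a summit of 16, 6653 bp outside, and the T-cell receptor subunit gene Cd3d had summits of 15 and 10, the taller 119 bp inside the gene. Counted only at the nearest gene end, 5 of the 19 genes had an interval, against 12.8% of all protein-coding genes. None of the 15 intervals of the partner list and the 12 of the lymphoid list was called in the input.

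**Figure D5:**
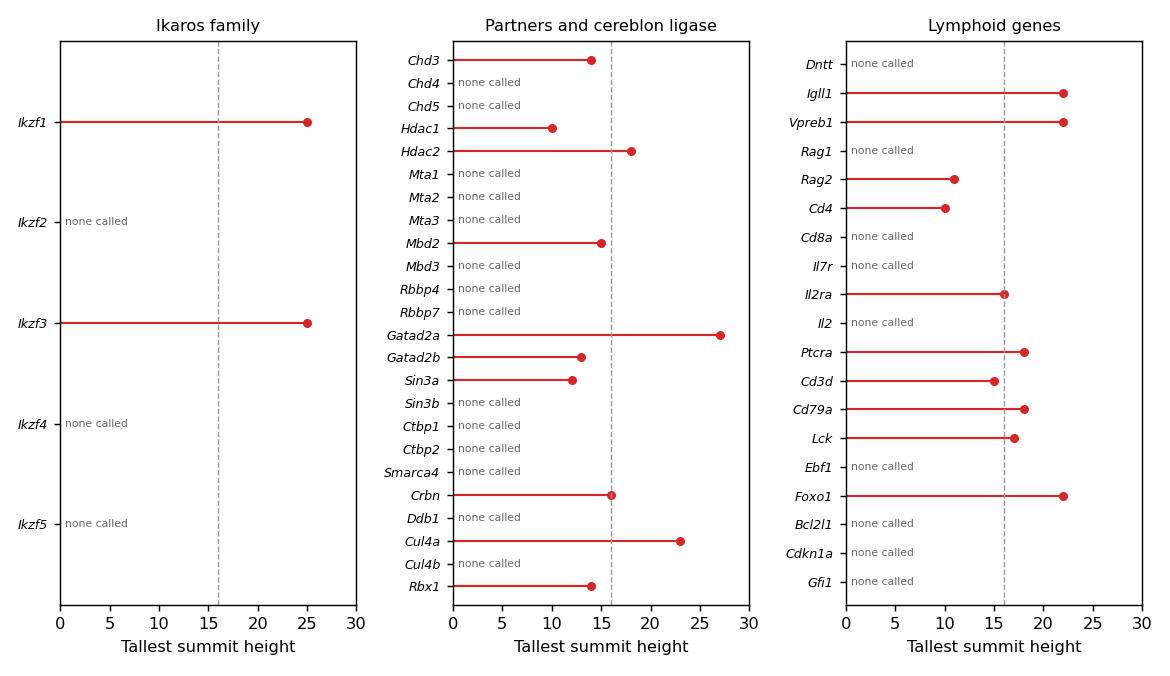
Height of the tallest Myc-Tag summit in the body or within 10 kb of each gene, for the Ikaros family, the genes of their partners and of the cereblon ligase, and the lymphoid genes, with the median of all summits, 16, as a dashed line. Ikzf1 and Ikzf3 reach 25, which 1 gene of the other panels, Gatad2a with 27, exceeds.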

How the data were processed

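The authors deposited, as browser tracks, the intervals and summits of 1 Myc-Tag ChIP and 1 input library and a list of active regions that held the same 3477 intervals as the Myc-Tag track. Each deposited summit height is a score with no stated normalization. Active Motif carried out both the assay and its analysis. Sequencing was on an Illumina GA II, and peaks were called from MACS p-values. The methods name an IgG control, while the second deposited library is labelled input. The MACS version and threshold, and which library served as background in the calling, are not given in the sources used here. The submitters' processing notes name BWA and the build mm9. However, 58.4% of summits lay within 1 kb of a protein-coding gene end of GRCm38 (53.7 to 60.8% on chromosomes 1, 7, 10 and 11), where 2.94% of the annotated span lies, so coordinates were read as mm10.

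Summits were joined to their intervals, starts were counted from 1, and genes and promoter sequences came from RefSeq tables of GRCm38.p6. Promoter windows were listed for 17492 of 21887 protein-coding genes, of which 2 were family members. Genome and protein sequences were not used here, so the planned protein identities were not computed. With 1 library per group no test was made. Shares have 95% Wilson intervals, which cover counting error only. The members and lists were chosen with earlier results of these data known. Genes were named as members, neighbors, genes overlapped by their intervals, up to 8 list genes with the tallest summits, and the 5 genes most like Ikzf1. List genes outside these, and the genes nearest to summits, were named after their values were seen. The results for 2 genes, 1 from the lymphoid list and 1 of those most like Ikzf1, are not reported here. The overlap step was tested on simulated data and placed 200 of 200 intervals correctly. Alternatives were other distances, height thresholds, overlaps and gene assignments. The tools were Python 3.11.15 with scipy 1.17.1, pandas 2.3.3, matplotlib 3.10.9 and numpy 2.4.6.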

Additional observations from a re-analysis of the deposited data

How the results depend on the processing

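The alternatives gave 43 values, of which 18 stayed close to those reported (counts by a factor of at most 1.5, shares inside their 95% interval) and 25 did not. Counting at the nearest gene end was chosen after seeing the data. With the gene body only, 1 family gene (Ikzf1) with 1 interval, 5 partner genes, 4 lymphoid genes and 13.4% of protein-coding genes had an interval. Within 1 kb these were 1 family gene (Ikzf1) with 1 interval, 6 partner genes, 4 lymphoid genes and 14.2%. Within 50 kb they were 4 family genes, all but Ikzf2, with 7 intervals, 16 partner genes and 33.3%. At heights from the median of 16 upward, the family count stayed at 2 genes, Ikzf1 and Ikzf3, while 4 partner genes and 10.7% of protein-coding genes had an interval. From the 75th percentile of 19 upward, the family again had 2 genes, with 2 partner genes, 3 lymphoid genes and 6.05%. Counted at the nearest gene end, 1 family gene (Ikzf1), 6 partner genes, 5 lymphoid genes and 12.8% had an interval. Over all genes of the table the share was 11.7%. In the 250 bases before the start alone, 22.2% of promoters held TAATT. Fewer or more genes follow from the construction of these alternatives. Requiring 50% of the interval inside and leaving out intervals called in the input moved none of the 5 counts and shares of genes beyond these limits. With intervals closer than 10 kb merged, the family had 2 intervals, 1 at Ikzf1 and 1 at Ikzf3. No paired analysis was possible because there was a single library per group, which also left no replicate to omit. The unknown depth limits every statement that an interval was missing.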
